A study of Mus musculus with 12 samples.

Results

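The genes that make, package, take back and break down the inhibitory transmitters GABA and glycine were followed across 4 groups of mouse cerebellum. They are 7 genes, Gad1, Gad2, Slc32a1, Slc6a5, Slc6a11, Slc6a13 and Abat, of 18194 genes that the array annotation names. All were taken by symbol, but the set was chosen with earlier results of these data known. The annotation assigns 15 of the 45101 probe sets of the array to them. The study measured cerebellar RNA of mice aged 6 weeks on a C57BL/6 background, with 1 array for each of 12 mice and 3 mice in each group. The groups are mice homozygous for a knockin allele at the Sca6 locus with 118 glutamine codons (MPI 118Q/118Q), mice homozygous for the same kind of allele with 11 codons (MPI 11Q/11Q), and the wild type littermates of each line. Sca6 is the calcium channel gene Cacna1a, and both knockin groups carry the knocked-in sequence, so the 11Q line stands for the knockin without a long repeat. The knockin allele is present in every cell of these mice, and the tissue is the whole cerebellum, so fewer cells of a type and less RNA per cell cannot be told apart. Limma p-values rest on the spread among the mice within groups as labelled, pooled over the 4 groups for each gene.

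GABA is made from glutamate by 2 glutamate decarboxylases, the products of Gad1 and Gad2. Slc32a1 encodes VGAT, the transporter that loads GABA and glycine into synaptic vesicles. Slc6a5 encodes GlyT2, which returns glycine to the endings of glycinergic neurons. Slc6a11 encodes GAT-3, a GABA transporter found largely on astrocytes, and Slc6a13 encodes GAT-2, which is known from the meninges and, at lower levels, from brain tissue. Abat encodes GABA transaminase, the mitochondrial enzyme that breaks GABA down. In the cerebellum, Purkinje cells and the interneurons of the molecular layer release GABA, and many Golgi cells use both GABA and glycine.

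The genes lie on 4 mouse chromosomes in the RefSeq annotation of assembly GRCm38.p6. Gad1 is at chr2:70561303-70602014, Gad2 at chr2:22621015-22693877, Slc32a1 at chr2:158607260-158615747 and Slc6a5 at chr7:49906984-49963864. Slc6a11 is at chr6:114131241-114249886, Slc6a13 at chr6:121300288-121337721 and Abat at chr16:8513429-8621568. RefSeq promoter windows matched 6 of the 7 genes. The windows of Gad1, Slc32a1 and Slc6a5 are shown because these 3 genes were the lowest of the 7 in the 118Q knockin mice and followed each other from array to array. Each run is the 250 bases before the transcript start that the RefSeq promoter table lists first for the gene, on the plus strand, and for these 3 genes that start lies inside the outer span given above. The runs are at chr2:70561879-70562128, chr2:158610508-158610757 and chr7:49910049-49910298. Capitals mark the E-box CANNTG, whose letters are the same on both strands and which basic helix-loop-helix factors of neurons are known to bind, and the core TGGGAA of sites of the Notch pathway factor RBPJ, searched on both strands.
Gad1: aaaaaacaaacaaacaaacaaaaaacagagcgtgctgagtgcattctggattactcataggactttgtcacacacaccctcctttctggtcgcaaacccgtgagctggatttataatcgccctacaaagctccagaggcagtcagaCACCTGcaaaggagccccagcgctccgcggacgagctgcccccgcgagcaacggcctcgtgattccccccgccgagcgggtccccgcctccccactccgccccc
Slc32a1: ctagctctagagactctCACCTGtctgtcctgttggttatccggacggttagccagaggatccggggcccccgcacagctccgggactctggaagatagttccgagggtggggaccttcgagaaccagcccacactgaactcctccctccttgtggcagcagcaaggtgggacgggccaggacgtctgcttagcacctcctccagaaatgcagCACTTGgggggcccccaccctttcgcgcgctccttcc
Slc6a5: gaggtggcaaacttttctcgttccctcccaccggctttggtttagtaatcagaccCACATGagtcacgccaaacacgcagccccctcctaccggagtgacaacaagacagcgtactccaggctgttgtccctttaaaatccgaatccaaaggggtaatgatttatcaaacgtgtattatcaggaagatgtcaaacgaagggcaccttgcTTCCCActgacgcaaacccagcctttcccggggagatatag
The Gad1 window holds 1 E-box, the Slc32a1 window 2 and the Slc6a5 window 1. Only the Slc6a5 window of these holds an RBPJ core, read here as TTCCCA. Of 32841 RefSeq windows of this length, 66.2% hold the E-box and 21.6% the RBPJ core, so both are common and a match is a description of the letters. The windows of Gad1, Slc32a1 and Slc6a5 are 58.0%, 62.4% and 50.4% G or C, against a median of 52.4% over all windows.

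The values deposited for each array are log2 levels, 1 for each probe set. Array medians lay between 2.21 and 2.38, and array pairs correlated at 0.980 to 0.995. Markers of granule cells, the main neuron of the cerebellum, were bright in every array (mean of 9 genes 9.01 to 9.28), as the labelled tissue should show. Markers of the choroid plexus, tissue next to the cerebellum, ranged from 2.40 to 6.47 within and across groups. Of the 10 markers listed for the brainstem 3 lay above the filter, and their mean was between 2.29 and 2.63, with the 118Q knockins at 2.41, 2.37 and 2.42 below their littermates at 2.50, 2.61 and 2.49. The 11Q knockins, at 2.42, 2.38 and 2.29, were also below their littermates, at 2.45, 2.43 and 2.63. After the dimmest 40% of probe sets were removed, 12672 genes remained, and each of the 7 genes had a probe set among them. Of the 15 probe sets, 10 lay above the filter and 5 did not. Cacna1a, the knockin gene, differed by -0.34 ± 0.15 (SE) in the 118Q line and by -0.07 in the 11Q line, and neither difference passed the test. The 18S ribosomal RNA signal was lower in the 118Q knockin arrays, at 9.23, 8.63 and 8.56 for replicates 1 to 3, than in their littermates, at 9.78, 9.66 and 10.32. The exact two-sided permutation p of this difference was 0.1, the smallest that 3 against 3 arrays can give. In the 11Q line the 18S signal was 10.24, 10.54 and 10.53 in wild type and 10.10, 10.27 and 10.36 in knockin mice.

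**Figure D1:**
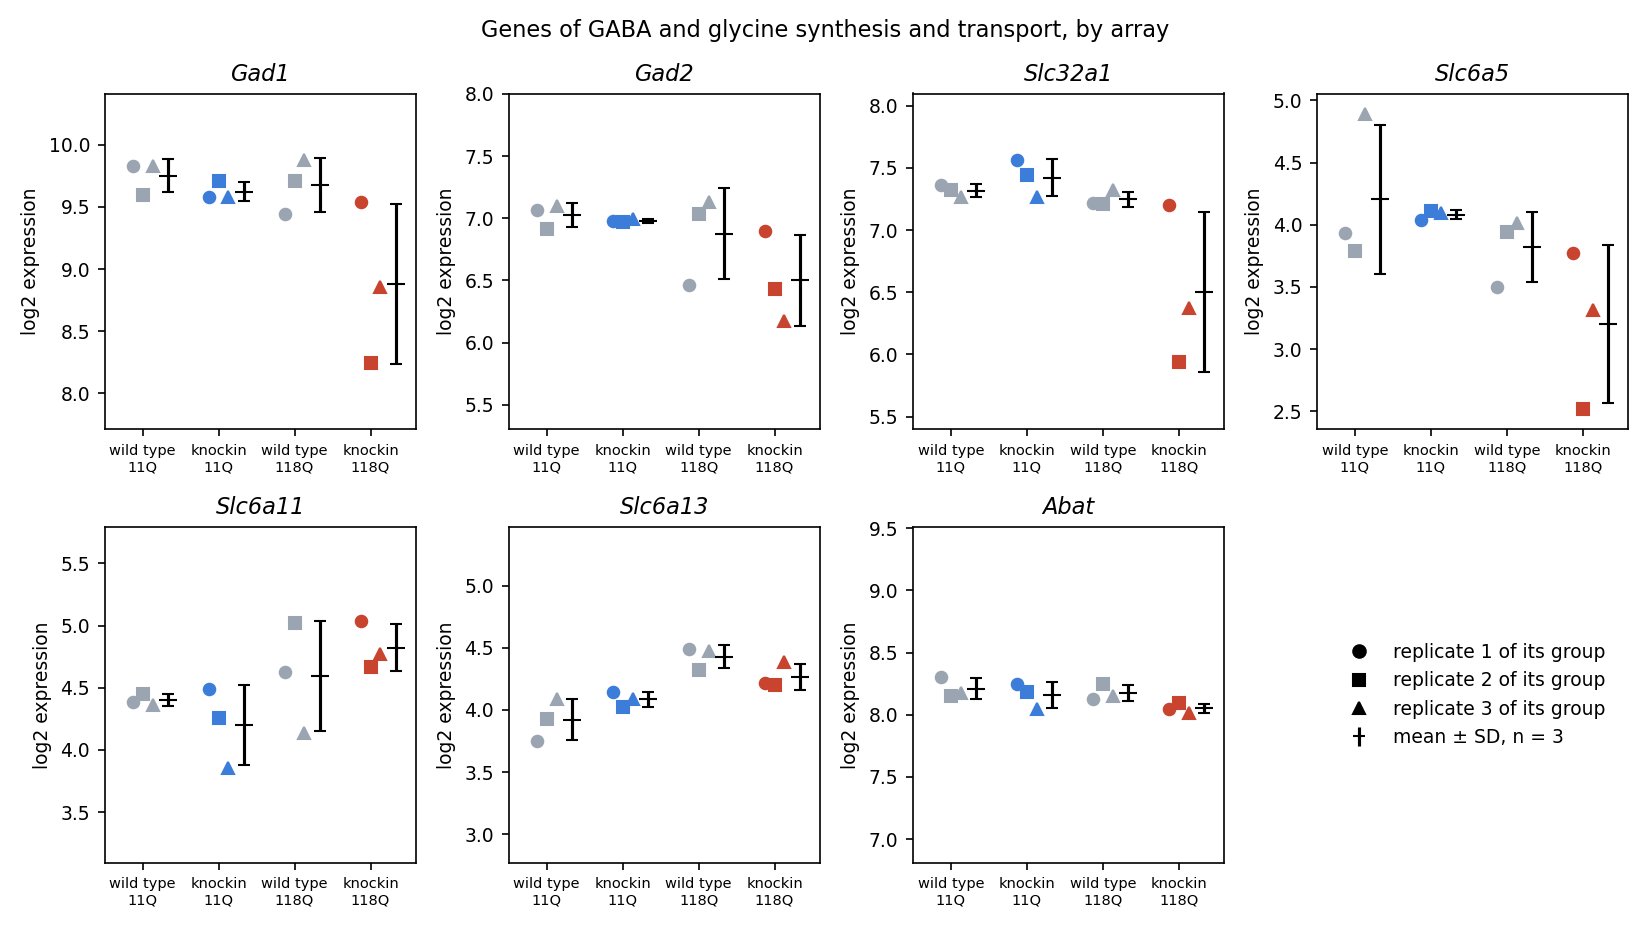
Log2 expression of the 7 genes on each of the 12 arrays, with the group mean ± SD beside the points (n = 3). All panels span the same log2 range. The symbol shape gives the replicate number, which was not taken to pair knockins with littermates. In Gad1, Slc32a1 and Slc6a5, replicates 2 and 3 of the 118Q knockin are the lowest of all arrays; replicate 1 lies among the other groups for Gad1 and Slc6a5 and, for Slc32a1, at 7.20, just below the lowest of them.

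The 118Q knockin against its littermates asks what the allele with the long repeat does in its own line. Transcripts of GABA synthesis and vesicular loading were lower in 2 of the 3 knockin cerebella and near wild type in the third, and none of the 7 genes passed the test. Gad1 and Slc32a1 had the largest differences, about 1.7-fold on average, while the GABA uptake carriers and the breakdown enzyme differed by 0.23 log2 units or less.

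Gad1, by the brighter of its probe sets (1416561_at), read 9.44, 9.71 and 9.87 in the 118Q wild type littermates and 9.54, 8.25 and 8.86 in the knockins. Knockin replicates 2 and 3 were below every other array of the study, but replicate 1 lay within the littermate range, so the groups overlap. The difference was -0.79 ± 0.24 (SE, 3 against 3 arrays), or 1.73-fold lower, with a limma adjusted p of 0.124. The other Gad1 probe set (1416562_at) read 7.08, 7.12 and 6.73 in littermates and 6.99, 5.91 and 6.25 in knockins. It repeats the order of the knockin arrays and differed by -0.59 ± 0.22 (adjusted p = 0.189 over all probe sets). Without knockin replicate 1, the array at littermate level, the Gad1 difference was -1.12 and passed the test (adjusted p = 0.00967). In that setting 707 of 12672 genes were called, against 24 with all arrays. Without replicate 2 the Gad1 difference was -0.48.

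Gad2, the second decarboxylase, read 6.46, 7.04 and 7.13 in the 118Q littermates and 6.90, 6.43 and 6.18 in the knockins (1429589_at). Littermate replicate 1 is close to knockin replicate 2, and the groups overlap. The difference of -0.37 ± 0.19 did not pass (adjusted p = 0.312). It was -0.21 without knockin replicate 3, -0.25 without littermate replicate 3, -0.58 without littermate replicate 1 and -0.57 without knockin replicate 1. A dimmer Gad2 probe set (1421978_at) spread from 3.13 to 5.05 over the arrays and differed by 0.09 ± 0.52, too noisy to place Gad2 on its own. Within each array, Gad1 minus Gad2 shifted by -0.42 between littermates and knockins of the 118Q line, with an exact two-sided permutation p of 0.2. In the 11Q line it shifted by -0.08 with an exact permutation p of 0.3, and 3 against 3 arrays cannot give less than 0.1. The 118Q shift was -0.14 without knockin replicate 2, and the difference between the genes did not pass.

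Slc32a1, the vesicular transporter, read 7.21, 7.21 and 7.32 in the 118Q littermates and 7.20, 5.94 and 6.37 in the knockins (1422756_at). All 3 knockin arrays were below all 3 littermate arrays, but replicate 1 only by a margin that barely shows in the second decimal. The difference was -0.74 ± 0.23, or 1.67-fold lower (adjusted p = 0.132). Without knockin replicate 1 it was -1.09 and passed (adjusted p = 0.00330), in the setting that called 707 genes, and without replicate 2 it was -0.46. Another Slc32a1 probe set above the filter (1456457_at) read 1.87 to 2.46 on all arrays and differed by 0.12 ± 0.13. With the 2 averaged, the Slc32a1 difference was -0.31. Another pair of Slc32a1 probe sets lay below the filter, at means of 1.24 and 1.20, and differed by -0.02 and 0.05.

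Slc6a5, the glycine carrier of glycinergic endings, read 3.50, 3.94 and 4.02 in the 118Q littermates and 3.77, 2.52 and 3.32 in the knockins (1442177_at). Knockin replicates 2 and 3 were again the lowest of all arrays, and replicate 1 lay among the littermates. The difference of -0.61 ± 0.31 did not pass (adjusted p = 0.311), and it was -0.27 without replicate 2. The mean of the 3 tested brainstem markers was lower in all 3 knockins than in the littermates, in the 11Q line as well as in this one. Taken singly, each of these markers overlapped between the 118Q groups. Their part in the Slc6a5 values was not tested. The other Slc6a5 probe set (1425992_at) lay below the filter, at a mean of 0.71.

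Of the GABA carriers of glia and meninges, Slc6a11 read 4.63, 5.02 and 4.14 in the 118Q littermates and 5.03, 4.67 and 4.77 in the knockins (1433989_at). The groups overlap, and the difference of 0.23 ± 0.21 did not pass (adjusted p = 0.587). It was 0.44 without littermate replicate 2, 0.12 without knockin replicate 1 and -0.0019 without littermate replicate 3, so its direction is not fixed by these arrays. Slc6a13 read 4.49, 4.32 and 4.48 in littermates and 4.21, 4.20 and 4.38 in knockins, with overlap in replicate 3 of the knockins (1424338_at). It differed by -0.16 ± 0.11 (adjusted p = 0.450).

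Abat, the enzyme that breaks GABA down, was the steadiest of the 7 genes, with an SD of 0.09 over all 12 arrays (1433855_at). It read 8.12, 8.24 and 8.15 in the 118Q littermates and 8.04, 8.09 and 8.01 in the knockins. The groups do not overlap, yet the difference was only -0.12 ± 0.10 and did not pass (adjusted p = 0.527). The second Abat probe set (1422226_at) and the second Slc6a11 probe set (1453871_at) lay below the filter, at means of 0.68 and 0.39.

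Counted over the 7 genes, limma called 0 in the 118Q effect at an adjusted p below 0.05, where 24 of 12672 genes (0.189%) were called. At an unadjusted p below 0.05 there were 2, Gad1 and Slc32a1, against 18.7% of all genes. All 3 knockin arrays were below all 3 littermates in 2 of the 7, Slc32a1 and Abat, against 7.24% of all genes, and above them in none, against 15.1%. The median difference of the 7 genes was -0.37, with 6 below 0, while the median of all genes was 0.06, with 5071 of 12672 below 0. Ordered by their difference from the lowest of 12672, Gad1 stood at 73, Slc32a1 at 91, Slc6a5 at 169 and Gad2 at 646.

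**Figure D2:**
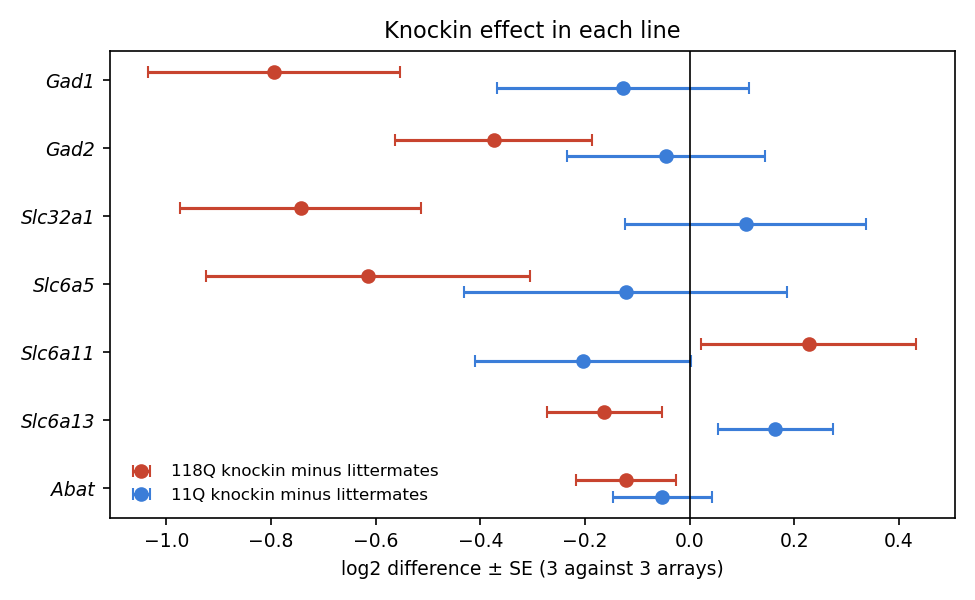
Log2 difference ± SE of each of the 7 genes, knockin minus littermates, in the 118Q line (red) and the 11Q line (blue), 3 against 3 arrays each. The 118Q points of Gad1, Slc32a1 and Slc6a5 lie between -0.79 and -0.61, and no point passed the test.

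In the 11Q line the same genes lay close to their littermates, which asks what the knockin does with a repeat of normal length. Gad1 read 9.83, 9.59 and 9.83 in wild type and 9.58, 9.71 and 9.58 in knockin mice, a difference of -0.13 ± 0.24 (95% interval -0.65 to 0.39). Its second probe set differed by 0.22, in the other direction, with all 3 knockin arrays higher. It read 7.08, 7.02 and 6.76 in wild type, replicate 3 being the lowest, and 7.24, 7.10 and 7.18 in knockin mice. Slc32a1 read 7.36, 7.32 and 7.26 against 7.56, 7.44 and 7.26 and differed by 0.11 ± 0.23. Gad2 differed by -0.05 ± 0.19, with the 3 knockin arrays close together (SD 0.016). The groups of all these genes overlap on the brighter probe set.

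Slc6a5 in the 11Q line turned on 1 wild type array, replicate 3, which read 4.89 while the other two read 3.94 and 3.79. The knockins read 4.04, 4.11 and 4.10, and the difference of -0.12 was 0.22 without that array. Slc6a11 differed by -0.20 ± 0.21, Slc6a13 by 0.16 ± 0.11 and Abat by -0.05 ± 0.10. None of the 7 was called by limma and 0 had an unadjusted p below 0.05, where 0% and 4.23% of all genes did. No gene of the 7 had groups without overlap in either direction, against 7.17% of all genes lower and 3.24% higher. The median of the 7 was -0.05 beside -0.04 over all genes.

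The test of whether the effects differ between the lines shares its arrays with both effects, and it called 0 of the 7 genes by limma, as it called 0% of all genes. Slc32a1 had the largest difference of effects, -0.85 ± 0.33 (adjusted p = 0.400), and was the only 1 of the 7 with an unadjusted p below 0.05, against 11% of all genes. Without 118Q knockin replicate 1 it was -1.20 and passed (adjusted p = 0.0451), where 12 of 12672 genes were called. Gad1 differed by -0.67 ± 0.34 (adjusted p = 0.496), with a 95% interval of -1.40 to 0.07. Slc6a13 is the gene whose knockins lay on opposite sides of their littermate mean, lower in all 3 arrays of the 118Q line and higher in all 3 of the 11Q line, with a difference of effects of -0.33 ± 0.15 (adjusted p = 0.460).

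Set directly against each other, the knockin groups shared no littermates, so this comparison holds the line, and any batch that goes with it, beside the repeat, and these cannot be told apart. Slc32a1 was the only 1 of the 7 genes called, and it was lower in the 118Q knockins by 0.92 ± 0.23 (adjusted p = 0.0241), or 1.89-fold. This comparison uses the same 118Q knockin arrays as the 118Q effect, and limma called 13.7% of all genes in it. Leaving out 11Q knockin replicates 1, 2 or 3 or 118Q knockin replicates 2 or 3 took the Slc32a1 call away, with adjusted p-values of 0.0751, 0.0679, 0.0530, 0.0800 and 0.0924. The call was also lost in a fit of the 2 groups alone (adjusted p = 0.0696) and with its probe sets averaged (-0.42, adjusted p = 0.0523). With the 18S signal as a covariate its direction turned, to 0.065 (adjusted p = 0.965).

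Gad1 was lower in the 118Q than in the 11Q knockins by 0.74 ± 0.24 (adjusted p = 0.0582), which did not pass, while its dimmer probe set was lower by 0.79 ± 0.22 (adjusted p = 0.0350 over all probe sets) and did. Slc6a5 differed by -0.88 ± 0.31 (adjusted p = 0.0753), Gad2 by -0.48 ± 0.19 (adjusted p = 0.107) and Slc6a11 by 0.63 ± 0.21 (adjusted p = 0.0608). With Slc32a1 and Gad1, these make 5 of the 7 genes at an unadjusted p below 0.05, against 30.9% of all genes.

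The wild type groups carry no knockin allele in either line, and limma called 0 of the 7 genes between them and 0% of all genes. Slc6a13, the meningeal GABA carrier, had an unadjusted p below 0.05, as 2.98% of all genes did. It read 3.75, 3.92 and 4.09 in the 11Q wild type and 4.49, 4.32 and 4.48 in the 118Q wild type, with no overlap. This difference of 0.51 ± 0.11 (adjusted p = 1.00) is larger than either knockin effect on the gene. The mean of 11 markers of meningeal fibroblasts read 4.25, 4.30 and 4.58 in the 11Q wild type and 4.65, 4.43 and 4.61 in the 118Q wild type. In the knockins it read 4.33, 4.54 and 4.41 in the 11Q line and 4.38, 4.23 and 4.21 in the 118Q line. Its part in the Slc6a13 values was not tested. Slc6a5 differed between the wild type groups by -0.39 ± 0.31, in the direction of its difference between the knockins, and stood at 131 of 12672 genes from the lowest. Gad1, Gad2, Slc32a1, Slc6a11 and Abat differed between the wild type groups by -0.08, -0.15, -0.07, 0.19 and -0.04.

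The mean levels of the Purkinje cell and molecular layer interneuron marker lists had the same order over the 118Q knockin arrays as Gad1, Slc32a1 and Slc6a5, with replicate 1 highest and replicate 2 lowest. Of the single markers, those without this order were Pcp2 of the first list and Sorcs3, Ptprk, Pvalb and Cacng3 of the second, named after their values were seen. The mean of the 9 tested of 12 listed Purkinje cell markers was 9.14, 9.16 and 9.25 in the 118Q littermates and 8.98, 8.22 and 8.48 in knockin replicates 1, 2 and 3. Of these 9 genes, 8 were below 0 and 6 were lower at an unadjusted p below 0.05. By limma 1 fell at an adjusted p below 0.05, Slc1a6, the glutamate transporter of Purkinje cells. The mean of all 9 listed markers of molecular layer interneurons was 5.22, 5.27 and 5.25 against 5.23, 4.78 and 4.95, and limma called none of them, with 3 lower at an unadjusted p below 0.05. For 5 of 6 listed markers of Golgi and Purkinje layer interneurons the mean was 3.87, 4.30 and 4.29 against 4.06, 3.86 and 3.81, with 0 called and 2 lower at an unadjusted p below 0.05. Over all genes in the 118Q effect, 0.189% were called and 18.7% had an unadjusted p below 0.05. The granule cell mean was 9.07, 9.07 and 9.08 against 9.12, 9.01 and 9.07.

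Astroglial markers, which include cells that carry Slc6a11, read 7.91, 8.19 and 7.86 against 7.95, 8.16 and 8.15. The mean of 9 microglia markers was higher in the 118Q knockins, at 4.94, 4.47 and 4.74 against 4.02, 4.29 and 3.87. Of these markers limma called 1 and 7 were higher at an unadjusted p below 0.05, against 0.189% and 18.7% of all genes. Knockin replicate 1, which was near wild type for Gad1, Slc32a1 and Slc6a5, was the highest of the 3 for the microglia markers. The part of the neuronal marker levels in the results for the 7 genes was not tested; Gad1, Gad2 and Slc32a1 are themselves expressed by these neurons.

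**Figure D3:**
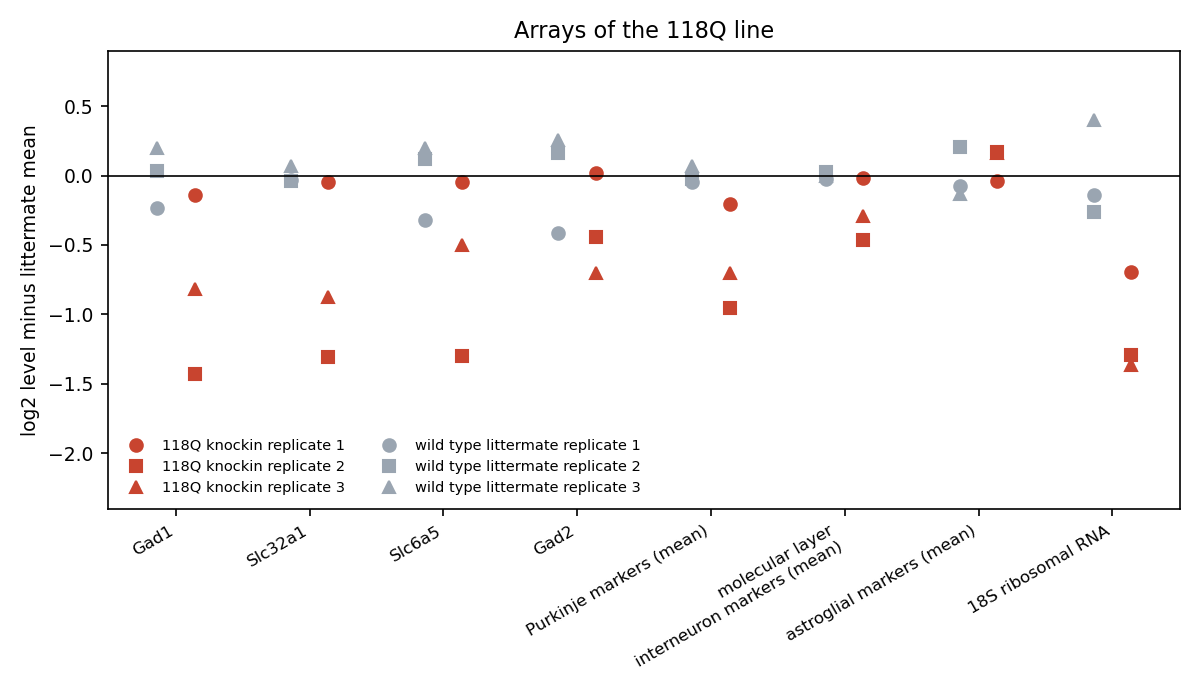
Log2 level on each array of the 118Q line minus the mean of the 3 littermates, for Gad1, Slc32a1, Slc6a5 and Gad2, for the mean of 3 marker lists and for the 18S ribosomal RNA signal. Knockin replicates 2 and 3 lie between -1.43 and -0.45 for the 4 genes, and replicate 1 lies between -0.14 and 0.02; the 18S signal is below every littermate in all 3 knockins.

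The 18S signal went with the 118Q groups, and so did some other array controls but not all. The 3′ minus 5′ difference of the Gapdh control was -0.14 in the 118Q knockins and -0.08 in their littermates, and the added controls phe and lys read 4.06 against 3.46 and 2.76 against 2.40. Each of these separated the 118Q groups without overlap, with an exact two-sided permutation p of 0.1, the smallest possible, and their part in the results for the 7 genes was not tested. The added controls dap and thr overlapped between the 118Q groups, with exact permutation p of 0.4 and 0.3. So did the 3′ minus 5′ difference of the actin control (0.2) and the array median (0.4). With the 18S signal as a covariate the 118Q differences of Gad1 and Slc32a1 were 0.076 and 0.020, those of Gad2 and Slc6a5 0.30 and 0.31, and that of Slc6a11 -0.22, all with the sign turned, and 0 of 12672 genes were called. Since the signal separates the 118Q groups, the covariate and the genotype cannot be told apart in this line. Gene length also went with the 118Q differences over all genes: the median was 0.15 for genes spanning up to 10 kb, 0.07 for 10 to 50 kb, -0.02 for 50 to 100 kb and -0.09 above 100 kb. Slc32a1 spans 8488 bases, Slc6a13 37434 and Gad1 40712, in the classes whose medians were above 0, while Gad2 (72863), Slc6a5 (56881), Abat (108140) and Slc6a11 (118646) are in the longer ones.

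Genes with the profile most like each of the 7 were found as the smallest root mean square difference between centred log2 profiles over the 12 arrays, as a description. For Gad1 they were Ppp1r17 (0.101), a phosphatase inhibitor of Purkinje cells, Asph (0.105) and Dync1i1 (0.119). For Slc32a1 they were Calb1 (0.120), the calcium buffer of Purkinje cells, Plekhd1 (0.125) and Dner (0.144), a Notch ligand of Purkinje cells. Calb1 read 10.69, 10.77 and 10.87 in the 118Q littermates and 10.56, 9.54 and 9.96 in the knockins, with replicate 2 lowest as in Slc32a1. Slc6a5 was nearest to Slc8a1 (0.188), a sodium-calcium exchanger, Tenm3 (0.229) and Tmem204 (0.232).

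Within the 7 genes, Slc32a1 was the 16th nearest of 12671 genes to Gad1, and Gad1 the 7th nearest to Slc32a1 and the 19th to Slc6a5. Gad2 was nearest to Rnps1 (0.0934), Rims2 (0.123) and Ndn (0.128), and Slc32a1 came at place 2656 from it. Slc6a11 was nearest to Ino80b (0.134), Cst3 (0.147), which astrocytes express, and Csdc2 (0.158). For Slc6a13 they were Sgo1 (0.111), Med9 (0.123) and Batf (0.128). Abat was nearest to Pdxk (0.0388), which makes the pyridoxal phosphate cofactor that GABA transaminase uses, Septin7 (0.0605) and Trmt61a (0.0661), and a gene with so narrow a range has many near neighbours.

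Other genes of inhibitory transmission were read from 8 lists of 92 genes, of which 64 were tested. In the 118Q effect limma called 0 of the 64, with 5 higher and 6 lower at an unadjusted p below 0.05, and their median was 0.01 with 30 below 0. Over all genes the shares were 0.189% called and 18.7% at an unadjusted p below 0.05, so these counts do not set the lists apart. In the 11Q effect it also called 0, with 1 higher and 2 lower, where 4.23% of all genes had an unadjusted p below 0.05, and the median was -0.03. The sign counts of the lists are to be read against 5071 of 12672 genes below 0 in the 118Q effect and 59.3% in the 11Q effect. The receiving side of the synapse was thus measured beside the releasing side, and in none of the lists did a gene pass.

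Of the GABA-A receptor subunits, 8 of 19 listed were tested, with a 118Q median of 0.05 and 5 above 0. Gabrb2 differed by -0.33, Gabra4 by 0.30 and Gabrd, the delta subunit of extrasynaptic receptors of granule cells, by 0.29. The GABA-B receptor subunit Gabbr1 differed by -0.26, and its partners Kctd12b and Kctd8 by 0.23 and -0.00. Glrb, the glycine receptor beta subunit and the only 1 of 5 glycine receptor genes above the filter, read 6.79, 7.33 and 7.50 in littermates and 7.04, 6.45 and 6.74 in knockins, a difference of -0.47 ± 0.19 (adjusted p = 0.213). Among 16 genes of the inhibitory postsynapse and receptor trafficking 13 were above 0, with a median of 0.13. Gphn, the scaffold gephyrin, differed by -0.29, against 0.29 for Iqsec3 and 0.26 for Gabarap, which binds GABA-A receptors.

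Chloride transport, which sets the direction of the current through these receptors, held the gene with the smallest adjusted p of the lists. Slc12a5, the chloride exporter KCC2 of neurons, read 9.47, 9.34 and 9.70 in the 118Q littermates and 9.17, 8.97 and 9.01 in the knockins. Here all 3 knockin arrays, replicate 1 included, lay below every littermate, and the difference was -0.45 ± 0.11 (adjusted p = 0.0757). It passed without knockin replicate 1 (adjusted p = 0.0342) and with an intensity trend (0.0451), settings that called 707 and 200 of 12672 genes. The Slc12a5 difference was -0.19 as the mean of its probe sets and -0.02 with the 18S covariate. Clcn2, a chloride channel, differed by 0.42 and Wnk1, a kinase that regulates chloride carriers, by -0.23. The 10 tested genes of this list had a median of -0.17, with 7 below 0.

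Of 9 other transporters, the creatine carrier Slc6a8 differed by 0.29, the glutamine carrier Slc38a1 by -0.41 and the taurine carrier Slc6a6 by -0.18. Slc38a1 read 8.62, 8.65 and 9.10 in littermates and 8.48, 8.35 and 8.32 in knockins, without overlap (adjusted p = 0.151). Of 8 genes of GABA breakdown, glutamate supply and cofactor supply 6 were below 0 with a median of -0.08, and Aldh5a1, the enzyme after Abat, differed by -0.24, Got1 by -0.25 and Pdxk by -0.11. Of 9 genes of glycine and serine metabolism 6 were above 0 in the 118Q effect, with Phgdh at 0.27, Shmt2 at 0.31 and Shmt1 at -0.34. Shmt1 read 5.23, 4.34 and 4.22 in littermates and 4.28, 4.16 and 4.33 in knockins, so its difference rested largely on littermate replicate 1. In the 11Q effect all 9 were below 0, with a median of -0.18 and 0 called, where 59.3% of all genes were below 0.

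**Figure D4:**
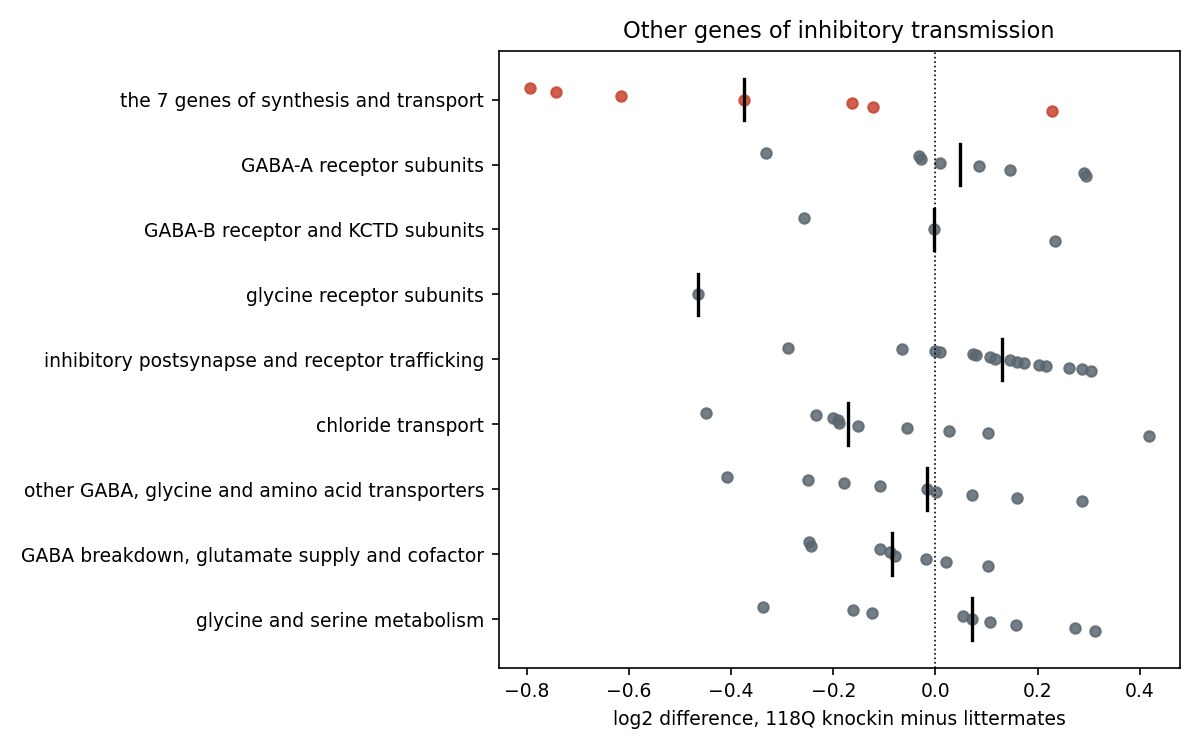
Log2 difference in the 118Q line, knockin minus littermates, of the 7 genes of synthesis and transport (red) and of the 64 other tested genes of inhibitory transmission by list (grey), with each list's median as a vertical bar. The medians run from -0.47 for the single glycine receptor gene and -0.37 for the 7 genes to 0.13 for the inhibitory postsynapse.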

How the data were processed

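Cerebellar RNA of 12 mice was measured on Affymetrix expression arrays. For each array the authors deposited log2 values by probe set, computed with RMA per the submitters' processing notes. The RMA version is not given in the sources here. Dim probe sets have lower values than is common for RMA, and all values are used as relative levels. Per the labels, RNA had an integrity number above 5.

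Gene symbols came from the array annotation; 34958 probe sets had 1 symbol, 932 several and 9211 none. Probe sets in the lowest 40% by mean (log2 under 1.58) were removed, and the brightest probe set stood for each gene. One mean per group was fitted to the 12 arrays with limma 3.58.1 in R 4.3.3 (8 residual and 4.61 prior degrees of freedom), as the study's design text also names limma. P-values are two-sided, Benjamini-Hochberg adjusted over all 12672 genes, and called below 0.05. Probe sets were also tested one by one, adjusted over 27060. Gad1 minus Gad2 and the 18S signal were compared by exact permutation. The script was tested on simulated data. With 3 arrays a group, their number limits precision.

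The 7 genes, the gene lists and the rule for naming genes were chosen with earlier results of these data known. Named were all 7 genes, from each list genes called and up to 3 with the smallest p in the 118Q effect, Cacna1a, and the 3 nearest profiles of each gene, passing over clones and predicted genes; Slc1a6 was named as the only Purkinje marker called. Knockins and littermates of the same replicate number were not treated as pairs. Same-numbered arrays of a line correlated at -0.17 to 0.19 in their deviations from the group means. With 3 arrays a group, such a check cannot settle whether equal numbers mark pairs. That check did not compare the lines. Wild type replicates 3 of both lines shared low values of some genes. Clptm1, named after its values were seen, read 6.10 and 6.20 there and 6.87 to 7.12 on the other arrays. Both arrays were left out together as 1 alternative, and what they share was not tested.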

Additional observations from a re-analysis of the deposited data

Results flagged for a closer look

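Slc6a13, the GABA carrier GAT-2, had knockin effects on opposite sides in the lines, with every 118Q knockin array below and every 11Q knockin array above the mean of its littermates. The test of the difference gave -0.33 ± 0.15 (adjusted p = 0.460), so it did not pass, and the wild type groups of the lines stand further apart than either knockin effect.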

How the results depend on the processing

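The alternatives were no filter, removal of the lowest 60% of probe sets, averaged probe sets, probe sets one by one, centred and quantile-normalized arrays, an intensity trend, array weights, the 18S signal as covariate, a fit of only the groups compared, a replicate block, wild type replicate 3 of both lines left out, and each array left out in turn. The 11Q and wild type comparisons called 0 of the 7 genes under each of those run. In the 118Q effect array weights called 4 (Gad1, Gad2, Slc32a1, Slc6a5) and 15 genes of the inhibitory lists, where an intensity trend called 1; that weighting stopped before it converged and gave 118Q knockin replicate 3 a weight of 6.08. Over all genes, array weights called 24.7% in this effect. Leaving out 1 array gave 0 to 2 of the 7 genes and 0 to 1 of the lists. The most came without 118Q knockin replicate 1, where 5.58% of all genes were called. The difference of effects gave 1 with array weights, against 4.83% of all genes, and 0 to 1 with 1 array left out. Between the knockins the count was 1 in the fit used, against 13.7% of all genes. It was 2 with 60% removed, quantile normalization, an intensity trend or probe sets one by one. Of all genes, 1771 of 9839 were called with 60% removed, 13.4% with quantile normalization and 14.9% with the trend. In the test by probe set, 13.6% of all probe sets were called. Array weights gave 6, against 48.2% of all genes, and the fit without wild type replicate 3 gave 3, against 19.7%. The count was 0 with the 18S covariate or only the groups compared. With 1 array left out it was 0 to 4, the most without 118Q knockin replicate 1, against 17.9% of all genes.

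Signs turned mainly with the 18S covariate. In the 118Q effect it gave Gad1 0.076, Gad2 0.30, Slc32a1 0.020, Slc6a5 0.31 and Slc6a11 -0.22. In the 11Q effect it gave Gad1 0.025, Gad2 0.073 and Slc6a5 0.040, and in the difference of effects Gad1 0.051, Gad2 0.23 and Slc6a5 0.27. Between knockins it gave Gad1 0.38, Gad2 0.39, Slc32a1 0.065 and Slc6a5 0.31, and between wild types Gad1 0.33, Gad2 0.16, Slc32a1 0.29, Slc6a5 0.043 and Slc6a11 -0.015. Array weights gave Slc6a11 -0.061 in the 118Q effect and Slc6a5 0.13 in the 11Q effect. Without wild type replicate 3 of both lines these were -0.0019 and 0.22. Averaged probe sets gave, in the 11Q effect, Gad1 0.046 and Gad1 minus Gad2 0.093, and Slc32a1 0.0047 between wild types. With 1 array left out, Slc6a11 in the 118Q effect ran from -0.0019 to 0.44, and in the 11Q effect Slc6a5 ran from -0.33 to 0.22 and Abat from -0.098 to 0.0056. Between wild types Abat ran from -0.074 to 0.0093, Gad1 from -0.18 to 0.040, Gad2 from -0.28 to 0.059 and Slc6a11 from -0.020 to 0.42. The cause was not tested.

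Over all genes the 118Q effect gave 24 calls, 10 of them higher. It gave 150 with 60% removed, 200 with the trend, 3131 with array weights, 608 probe sets one by one, 43 (13 higher) with quantile normalization, 10 (3 higher) with centred arrays, 3 without wild type replicate 3, 0 with the 18S covariate or only the groups compared, and 4 to 707 with 1 array left out, the most without 118Q knockin replicate 1. The replicate block gave 5 genes and 0 of the 7, with Gad1 at an adjusted p of 0.193. Only 11Q replicate 1 correlated best with its own number, and these arrays cannot settle whether equal numbers mark pairs. The block could not be fitted between lines.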
